A study of Mus musculus with 27 samples.

Results

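Foxp3+ regulatory T cells (Treg cells) of the mouse thymus and their Foxp3- conventional counterparts were compared over the first step of their late maturation, between high and intermediate surface CD24. The comparison used 12 of the 27 arrays of the study, 3 in each of 4 groups: Foxp3+GFP+ CD24int, Foxp3+GFP+ CD24hi, Foxp3-GFP- CD24intermediate (called Foxp3- CD24int here) and Foxp3-GFP- CD24hi. All came from thymus of the Balb/c strain, and the sort used a green fluorescent protein (GFP) that reports Foxp3, so the Foxp3+ cells carry that reporter. The labels name T lymphocytes, attach the word Treg to the Foxp3- groups as well, which the series design calls conventional, and do not state the reporter allele, the age or sex of the mice, or whether animals were pooled. Since nothing says that the 3 arrays of a group stem from different animals, the p-values here speak only of the spread among arrays, which may be technical.

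The quantity examined for each gene was the interaction: the log2 change between CD24int and CD24hi in Foxp3+ cells minus the same change in Foxp3- cells. A positive interaction means that a gene rose more, or fell less, in Foxp3+ cells, and the threshold was an adjusted p of 0.05 in limma's moderated test, corrected by Benjamini-Hochberg over all 18194 genes measured. Each gene was represented by its brightest probe set, a probe set being the group of array probes that reports 1 transcript. Levels are log2 intensities, values after ± are standard deviations (SD) for levels and standard errors (SE) for differences, and levels of different genes are not compared because their probes differ. These are bulk samples, in which fewer cells of a type and less RNA per cell cannot be told apart.

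CD4 single-positive thymocytes, which have passed positive selection, lose surface CD24 in the medulla while they become competent to leave. Over that time they switch off the machinery that rearranges T cell receptor genes and receptors such as CCR9 that hold them in the thymus, and gain factors of survival and egress such as KLF2 and S1PR1, the receptor that senses sphingosine 1-phosphate at the exit. Thymic Treg cells arise among these cells after strong T cell receptor signals and interleukin-2, express Foxp3, the transcription factor of the lineage, and share the thymus with mature Treg cells that can return from the periphery.

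The sort markers went with the labels. Foxp3 measured 9.94, 10.12 and 10.16 in Foxp3+ CD24int cells and 10.19, 10.07 and 9.96 in Foxp3+ CD24hi cells, against 4.03, 3.54 and 3.89 in Foxp3- CD24int cells and 3.94, 4.16 and 3.31 in Foxp3- CD24hi cells. Foxp3 therefore separated the classes on every array, and its interaction was -0.02 ± 0.24. Il2ra, which encodes the interleukin-2 receptor alpha chain CD25, had an interaction of 0.18 ± 0.29. Cd24a, the gene for the sorting marker, averaged 9.08 ± 0.55 in Foxp3+ CD24int and 10.34 ± 0.50 in Foxp3+ CD24hi cells, against 8.21 ± 0.71 in Foxp3- CD24int and 10.93 ± 0.24 in Foxp3- CD24hi cells (SD, n = 3 each). The span of Cd24a between the gates was thus -1.26 ± 0.42 in Foxp3+ cells, which did not pass (adjusted p = 0.324), and -2.73 ± 0.42 in Foxp3- cells, which passed (adjusted p = 0.000142). The difference between these spans, 1.46 ± 0.60, did not pass in the reported limma fit (adjusted p = 0.282). It passed in limma with the replicate number added as a block (adjusted p = 0.00543). This difference moves in the same sense as the gene changes below, and its part in them was not tested. Cd3d, a chain of the T cell receptor complex, lay between 12.31 and 12.94 on all 12 arrays.

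Of the 12 arrays, 1 stood apart. On replicate 3 of the Foxp3- CD24hi group, 12 of 13 measured liver genes were more than 2-fold above the highest of the other 11 arrays, with albumin (Alb) at 11.65 against 3.78 to 4.23. Transcripts of another tissue on that array enter every interaction through the Foxp3- CD24hi mean, so results are given with and without it where it changes them. None of the 13 liver genes passed for an interaction in limma, with 3 at an unadjusted p under 0.05, and the median interaction of their list was 1.47 with the array and -0.08 without it. Correlations between replicates across genes were 0.987 to 0.996, and the median SE was 0.15 for a step and 0.21 for the interaction.

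The interaction passed for 184 genes upward and 97 genes downward, 1.01% and 0.533% of all genes tested, and 89 and 49 of them differed by at least 2-fold. The median interaction over all genes was 0.01. At an unadjusted p under 0.05, 2316 genes passed, 1293 upward and 1023 downward. Most of these differences arose because a gene moved in Foxp3- cells and moved little in Foxp3+ cells. Among the 184, the median change was 0.17 in Foxp3+ cells and -0.82 in Foxp3- cells, and among the 97 it was -0.09 in Foxp3+ cells and 0.87 in Foxp3- cells. The change was the smaller in Foxp3+ cells for 163 of the 184 and 87 of the 97.

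Split by which step itself passed the test, 156 genes had an upward interaction and fell in Foxp3- cells with no passing change in Foxp3+ cells, and 83 had a downward interaction and rose in Foxp3- cells alone. A further 8 genes rose in Foxp3+ cells alone, 3 fell in Foxp3+ cells alone, and 2, Axl and Egln3, passed in both in opposite directions. Neither step passed alone for 18 upward and 11 downward genes. A step that misses the threshold is not shown to be absent, and the interaction is the test of the difference. Without the array holding liver transcripts the interaction passed for 140 genes upward and 58 downward; 187 of the 281 still passed and all 281 kept their direction, with 121 and 50 genes in the classes moved by Foxp3- cells alone. With quantile normalization in place of the deposited scale, 172 genes passed upward and 145 downward, so the split between directions depends on the scaling.

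**Figure D1:**
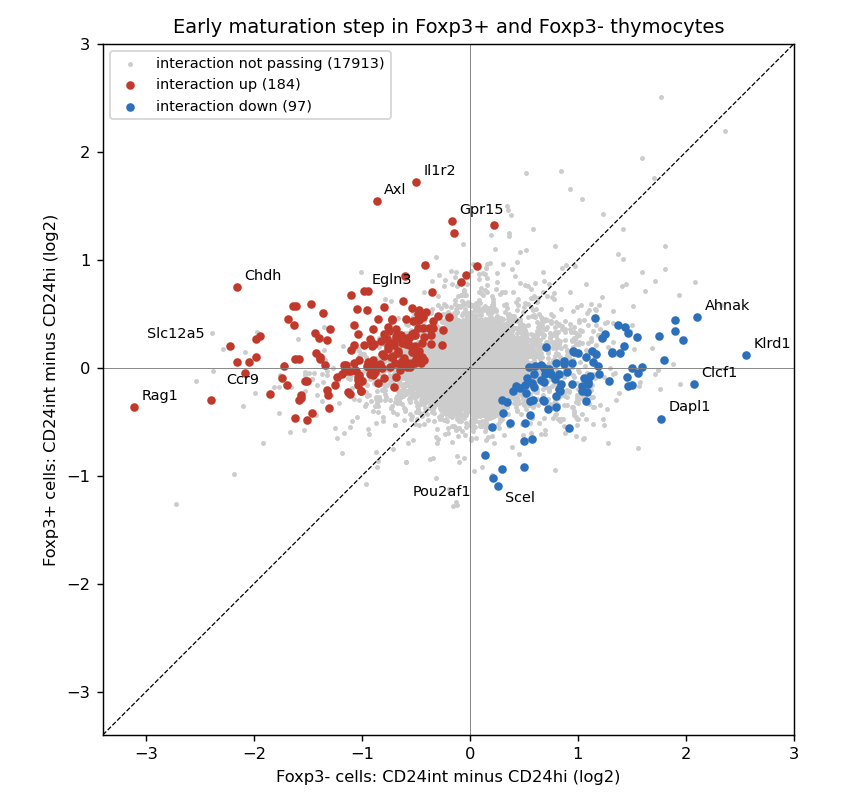
Log2 change between CD24int and CD24hi in Foxp3+ cells (vertical axis) against the same change in Foxp3- cells (horizontal axis), 1 point for each of 18194 genes, with the dashed line marking equal changes. Red points (184 genes, interaction up) lie mostly left of 0 and blue points (97, interaction down) mostly right of 0, both near 0 on the vertical axis.

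Taken by itself, the step in Foxp3+ cells passed for 44 genes upward and 8 downward (0.242% and 0.0440% of genes), and the step in Foxp3- cells for 411 upward and 500 downward (2.26% and 2.75%). With the replicate number added as a block, the counts were 166 and 44 in Foxp3+ cells and 815 and 1007 in Foxp3- cells. That block is an effect of the number shared by all arrays of the study, not a pairing within a step. The count for Foxp3+ cells is fragile. It was 52 in all, 14 without replicate 2 of Foxp3+ CD24int and 20 without replicate 1 of that group. Without replicate 3 of Foxp3+ CD24hi it was 25. When the Foxp3+ CD24int and Foxp3+ CD24hi arrays were fitted alone it was 0, with 1068 genes at an unadjusted p under 0.05. The spread then came from those arrays only. For Foxp3- cells the count was 626 in place of 911 without the array holding liver transcripts. Both steps were measured with 3 arrays a gate. Their SE is the same because the fit shares the estimate of a gene's spread over all 9 groups. It therefore does not show that the steps were equally precise.

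Rag1, which encodes a subunit of the recombinase that assembles T cell receptor genes, was among the 156 genes. It measured 3.56, 4.30 and 3.63 in Foxp3+ CD24int cells and 4.18, 4.29 and 4.11 in Foxp3+ CD24hi cells, against 3.44, 3.66 and 3.87 in Foxp3- CD24int cells and 6.82, 6.58 and 6.91 in Foxp3- CD24hi cells. Only the Foxp3- CD24hi arrays were high, and all arrays of the other 3 groups lay between 3.44 and 4.30. Detection calls were not used, so these low levels may be background, from which a further fall in Foxp3+ cells could not be seen. The change was -0.36 ± 0.25 in Foxp3+ cells, which did not pass, and -3.11 ± 0.25 in Foxp3- cells, an 8.64-fold fall. The interaction was 2.75 ± 0.36 (adjusted p = 8.15e-05), and 1.95 to 2.88 across the alternative fits. Ccr9, the receptor for the thymic chemokine CCL25, measured 9.90, 9.75 and 9.99 in Foxp3+ CD24int cells and 10.07, 9.68 and 9.75 in Foxp3+ CD24hi cells, against 10.28, 10.26 and 10.63 in Foxp3- CD24int cells and 12.83, 12.33 and 12.49 in Foxp3- CD24hi cells. Foxp3- CD24hi cells were again the only high group, 6.58-fold above Foxp3+ CD24hi cells, and the interaction was 2.21 ± 0.23 (adjusted p = 4.65e-06). All 5 probe sets for Ccr9 gave a positive interaction, 0.91 to 2.81.

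The gene with the largest upward interaction was Chdh, which encodes choline dehydrogenase. It measured 6.43, 5.83 and 5.68 in Foxp3+ CD24int cells and 6.03, 5.10 and 4.55 in Foxp3+ CD24hi cells, against 7.59, 7.06 and 7.06 in Foxp3- CD24int cells and 9.58, 9.14 and 9.45 in Foxp3- CD24hi cells. Its level in Foxp3+ cells lay below that of Foxp3- cells in both gates without overlap, and the interaction was 2.91 ± 0.45 (adjusted p = 0.000649). Slc12a5, a potassium-chloride cotransporter best known from neurons, had the most certain interaction of the named genes at 2.43 ± 0.22 (adjusted p = 9.86e-07). It lay between 4.03 and 4.71 in Foxp3+ CD24int, Foxp3+ CD24hi and Foxp3- CD24int cells and at 6.18, 6.28 and 6.42 in Foxp3- CD24hi cells. A second, dimmer probe set gave -0.13. The low levels may again be background, and across the alternative fits the interaction was 1.15 to 2.58.

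The same form, a fall in Foxp3- cells with little change in Foxp3+ cells, held for 6 more of the 12 largest upward genes. F13a1, the A chain of coagulation factor XIII, had an interaction of 2.24 ± 0.31, Rap1gap2, an inhibitor of the adhesion switch Rap1, 2.21 ± 0.34, and the sulfotransferase gene Chst2 2.19 ± 0.28. Cap2, which encodes an actin regulator, had 2.14 ± 0.26 and Etv5, an ETS-family transcription factor, 2.10 ± 0.39. For Etv5 the classes changed places: Foxp3+ cells lay above Foxp3- cells at CD24int (1.17 ± 0.28) and below them at CD24hi (-0.93 ± 0.28), both passing. Il17rb, a subunit of the receptor for interleukin-25, had an interaction of 2.24 ± 0.49 (adjusted p = 0.0136), with 6.57, 5.26 and 5.37 in Foxp3+ CD24hi cells, of which the first was high. Without replicate 2 of that group its adjusted p was 0.0516. Apart from Il17rb, each of the 12 kept its call when any 1 of the 12 arrays was left out.

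**Figure D2:**
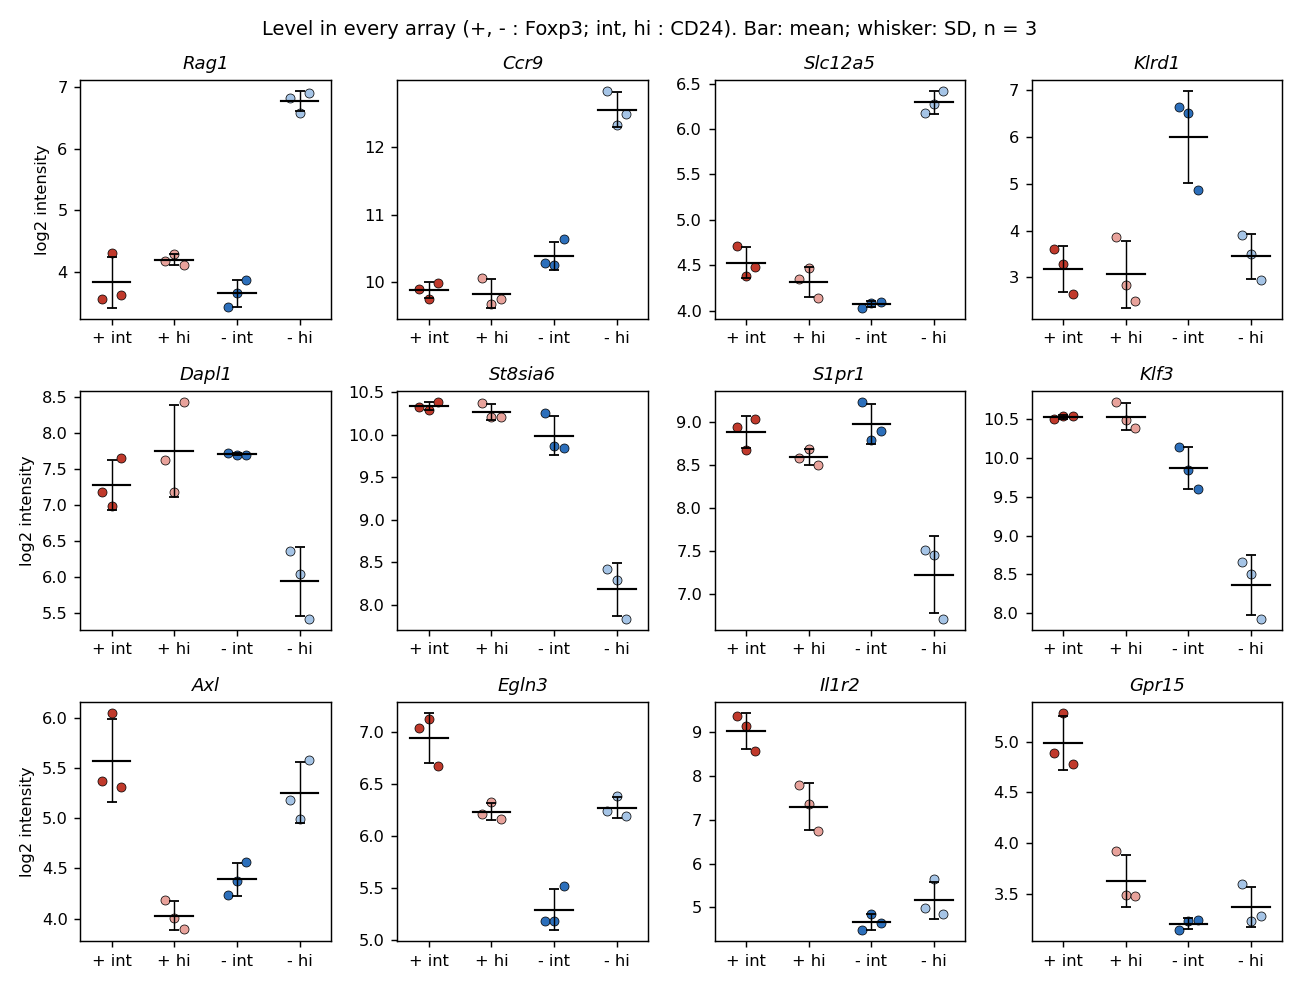
Log2 intensity on each array for 12 genes, 1 panel a gene, with groups in the order Foxp3+ CD24int, Foxp3+ CD24hi, Foxp3- CD24int, Foxp3- CD24hi; each dot is 1 array and each bar the mean of 3. In the panels of Rag1, Ccr9 and Slc12a5 the Foxp3- CD24hi arrays stand alone above the rest, in those of St8sia6 and Klf3 they stand alone below, and in those of Axl, Egln3, Il1r2 and Gpr15 the Foxp3+ CD24int mean is highest.

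A small set moved in Foxp3+ cells. Axl, a receptor tyrosine kinase known for the clearance of dying cells, measured 5.37, 6.05 and 5.31 in Foxp3+ CD24int cells and 4.18, 4.01 and 3.90 in Foxp3+ CD24hi cells, against 4.24, 4.37 and 4.57 in Foxp3- CD24int cells and 5.18, 4.99 and 5.58 in Foxp3- CD24hi cells. It rose by 1.54 ± 0.21 in Foxp3+ cells (adjusted p = 0.000775) and fell by 0.86 in Foxp3- cells (SE 0.21, adjusted p = 0.0156), so the class that was lower at CD24hi was the higher at CD24int. Without the array holding liver transcripts the fall in Foxp3- cells did not pass (-0.70 ± 0.23, adjusted p = 0.114), while the interaction did (2.24 ± 0.31, adjusted p = 0.000249). A second, dim probe set for Axl gave 0.25. Egln3, an oxygen-sensing prolyl hydroxylase, differed between Foxp3+ and Foxp3- cells by 1.65 ± 0.15 at CD24int, which passed, and by -0.04 ± 0.15 at CD24hi, which did not, with a rise of 0.71 ± 0.15 in Foxp3+ cells, a fall of 0.98 in Foxp3- cells and an interaction of 1.69 ± 0.22 (adjusted p = 8.15e-05).

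Il1r2, the decoy receptor for interleukin-1, measured 9.36, 9.13 and 8.56 in Foxp3+ CD24int cells and 7.80, 7.35 and 6.74 in Foxp3+ CD24hi cells, against 4.50, 4.86 and 4.65 in Foxp3- CD24int cells and 5.00, 5.65 and 4.86 in Foxp3- CD24hi cells. It was above the Foxp3- cells in both gates and rose a further 3.30-fold in Foxp3+ cells, with an interaction of 2.22 ± 0.31 (adjusted p = 0.000172). Gpr15, a homing receptor for the large intestine, was near the level of Foxp3- cells at CD24hi and rose by 1.36 ± 0.17 in Foxp3+ cells (interaction 1.53 ± 0.25, adjusted p = 0.000874). Kcnk6, which encodes a potassium channel, had an interaction of 1.39 ± 0.28 (adjusted p = 0.00663). Klrg1, an inhibitory receptor of activated lymphocytes, had 1.10 ± 0.28 (adjusted p = 0.0478), a call lost when any of 8 arrays was left out, with adjusted p of 0.0577 to 0.155. Of the 8 genes that rose in Foxp3+ cells alone, 4, Il1r2, Gpr15 and Kcnk6 among them, remained so without the array holding liver transcripts.

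The 3 genes that fell in Foxp3+ cells alone were Plekhg1 (interaction -1.23 ± 0.29), Pou2af1, a coactivator of octamer-binding factors (-1.23 ± 0.30), and Fam71b (-0.95 ± 0.23). Pou2af1 measured 3.27, 2.99 and 3.35 in Foxp3+ CD24int cells and 4.18, 3.96 and 4.54 in Foxp3+ CD24hi cells, against 5.73, 5.21 and 5.73 in Foxp3- CD24int cells and 5.52, 5.25 and 5.28 in Foxp3- CD24hi cells. These calls are weak: they were lost without any of 7, 8 and 8 arrays for Plekhg1, Pou2af1 and Fam71b, with adjusted p up to 0.0962, 0.113 and 0.0820.

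Where neither step passed alone, the named genes had smaller differences of opposite sign in the 2 classes. Lamc1, the gamma 1 chain of laminin, differed by 0.85 ± 0.23 over the step in Foxp3+ cells and by -0.60 ± 0.23 in Foxp3- cells (interaction 1.45 ± 0.32, adjusted p = 0.0159; 0.0528 without replicate 1 of Foxp3- CD24hi). Tbc1d4, a regulator of vesicle traffic through Rab proteins, differed by -0.92 ± 0.22 in Foxp3+ cells and 0.50 ± 0.22 in Foxp3- cells (interaction -1.41 ± 0.30, adjusted p = 0.0131; 0.0511 without replicate 1 of Foxp3- CD24int). The other named genes of these classes were Ell2 (1.37 ± 0.34), Csgalnact1 (1.09 ± 0.25), Gpr160 (1.05 ± 0.27), Scel (-1.36 ± 0.35), Lypd6b (-1.24 ± 0.29) and Sema4a (-1.18 ± 0.27). Each of these 6 calls was lost when any of 4 to 10 arrays was left out, with adjusted p of 0.0510 to 0.136.

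Among genes that rose in Foxp3- cells while Foxp3+ cells stayed near a constant level, St8sia6, which encodes a sialyltransferase, was the most certain. It measured 10.32, 10.29 and 10.39 in Foxp3+ CD24int cells and 10.38, 10.21 and 10.21 in Foxp3+ CD24hi cells, against 10.25, 9.87 and 9.85 in Foxp3- CD24int cells and 8.43, 8.30 and 7.84 in Foxp3- CD24hi cells. Foxp3- CD24hi cells were the only low group, 4.22-fold below Foxp3+ CD24hi cells, and the interaction was -1.73 ± 0.19 (adjusted p = 1.73e-05). Dapl1 had the second largest downward interaction, -2.24 ± 0.44 (adjusted p = 0.00601). Its levels were 7.19, 6.98 and 7.66 in Foxp3+ CD24int cells and 7.63, 7.18 and 8.44 in Foxp3+ CD24hi cells, against 7.72, 7.70 and 7.70 in Foxp3- CD24int cells and 6.36, 6.04 and 5.42 in Foxp3- CD24hi cells. Ms4a6c, of the MS4A family of membrane proteins, rose by 1.90 ± 0.22 in Foxp3- cells, while Foxp3+ cells were still 1.02 ± 0.22 higher at CD24int (interaction -1.55 ± 0.31).

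Other genes of this direction were lower in Foxp3+ than in Foxp3- cells at CD24int. Man1c1, a Golgi mannosidase, differed between Foxp3+ and Foxp3- cells by -1.46 ± 0.17 at CD24int, which passed, and by 0.08 ± 0.17 at CD24hi, which did not, with an interaction of -1.54 ± 0.24 (adjusted p = 0.000638). Pdlim4, which encodes an adaptor of the actin cytoskeleton, was lower in Foxp3+ than in Foxp3- cells in both gates, with differences of -3.13 ± 0.23 at CD24int and -1.41 ± 0.23 at CD24hi (interaction -1.72 ± 0.33, adjusted p = 0.00483). Klhdc2, a substrate receptor of a ubiquitin ligase, and Btbd11 were lower in Foxp3+ cells at CD24int and higher at CD24hi, with interactions of -1.61 ± 0.32 and -1.59 ± 0.28. St8sia6, Dapl1, Ms4a6c, Man1c1, Pdlim4, Klhdc2 and Btbd11 kept their calls without any 1 of the 12 arrays.

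The remaining 5 of the 12 largest downward genes rested on fewer arrays. Klrd1, the CD94 chain of a receptor of natural killer (NK) cells, measured 3.61, 3.29 and 2.64 in Foxp3+ CD24int cells and 3.87, 2.83 and 2.49 in Foxp3+ CD24hi cells, against 6.64, 6.52 and 4.86 in Foxp3- CD24int cells and 3.90, 3.49 and 2.95 in Foxp3- CD24hi cells. The Foxp3- CD24int arrays were high and replicate 3 was the lowest of them by 1.66. Its interaction of -2.44 ± 0.55 (adjusted p = 0.0191) was the largest downward, and the call was lost without any of 5 arrays, with adjusted p of 0.0643 to 0.0750, among them the array holding liver transcripts (0.0653). Clcf1, a cytokine of the interleukin-6 family, had -2.22 ± 0.50 (lost without any of 3 arrays, adjusted p up to 0.0728). Cdc25b, an activator of cyclin-dependent kinases, had -1.66 ± 0.40 (8 arrays, up to 0.109), the scaffold gene Ahnak -1.64 ± 0.38 (6 arrays, up to 0.0892) and Map2, a microtubule-associated protein, -1.64 ± 0.40 (9 arrays, up to 0.110). The other probe sets for Ahnak, which were dim, gave -0.45 to 0.38.

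Some genes passed upward in both classes, and these show the steps that the classes share. Of the 44 genes that rose in Foxp3+ cells, 17 also rose in Foxp3- cells, 38.6% of the 44 and 4.14% of the 411. Over all genes 2.26% rose in Foxp3- cells and 2.75% fell. None of the 8 that fell in Foxp3+ cells fell in Foxp3- cells, which at that share is not a result about them. Of the 17, 0 passed for the interaction in limma, with 2 at an unadjusted p under 0.05, both downward. Over all genes 1.01% passed upward and 0.533% downward, and 2316 of 18194 reached an unadjusted p under 0.05. The 17 were chosen for passing the same way in both steps, so their few interaction calls are not a result either. S100a4, a calcium-binding protein of motile cells, rose by 2.51 ± 0.49 in Foxp3+ and 1.77 ± 0.49 in Foxp3- cells. Fgl2, a secreted fibrinogen-like protein, rose by 1.94 ± 0.35 in Foxp3+ and 1.59 ± 0.35 in Foxp3- cells, and Cst7, a cystatin, by 1.28 ± 0.22 in Foxp3+ and 1.42 ± 0.22 in Foxp3- cells. Il6ra, the interleukin-6 receptor and a gene of the mature thymocyte list, rose by 1.43 ± 0.20 in Foxp3+ and 1.24 ± 0.20 in Foxp3- cells, with an interaction of 0.19 ± 0.28 whose adjusted p was 0.841.

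The interaction is also the difference between the classes at CD24int minus that at CD24hi, which shows where Foxp3+ cells stood. Foxp3+ and Foxp3- cells differed for 2779 genes at CD24int (15.3%) and for 3280 at CD24hi (18.0%). The count at CD24hi was 2703 without the array holding liver transcripts. Of the 184 genes with an upward interaction, 72 were lower in Foxp3+ cells at CD24hi and not passing at CD24int, among them Rag1, Slc12a5 and F13a1. A further 26 were lower in both gates, 43 were not passing at CD24hi and higher at CD24int, 27 were higher in both and 16, among them Axl, Chst2 and Etv5, were lower at CD24hi and higher at CD24int. Of the 97 downward genes, 42 were higher in Foxp3+ cells at CD24hi and not passing at CD24int, 29 were not passing at CD24hi and lower at CD24int, 17 were higher in both, 7 lower in both, and Klhdc2 and Btbd11 changed from higher to lower. The difference between the classes was smaller in size at CD24int than at CD24hi for 109 of the 184 and 59 of the 97.

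To place the Foxp3+ CD24hi cells on the path that Foxp3- cells travelled, their level was expressed as a position from 0 (the Foxp3- CD24hi mean) to 1 (the Foxp3- CD24int mean). For the 239 genes whose interaction arose from Foxp3- cells alone, the median position of Foxp3+ CD24hi cells was 0.80, with 159 genes (66.5%) at or beyond the midpoint, 91 beyond 1 and 44 below 0. The median position of Foxp3+ CD24int cells for those genes was 0.76. For the 670 genes that passed in Foxp3- cells without an interaction, the median position of Foxp3+ CD24hi cells was 0.59, with 370 (55.2%) at or beyond the midpoint. Without the array holding liver transcripts the medians were 0.86 over 171 genes and 0.64 over 454. Rag1 had a position of 0.83, Slc12a5 0.89, Dapl1 1.02 and St8sia6 1.15. The position uses the same Foxp3- CD24hi arrays as the interaction that chose the genes, so it describes them and tests nothing.

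Lists of genes by role were then read against the share of all genes that passed. Of all 18194 genes, 2316 reached an unadjusted p under 0.05 for the interaction, 1396 for the Foxp3+ step and 2848 for the Foxp3- step. An unadjusted count near those shares is not a result about a list. The list of recombination and the double-positive stage, the stage before CD4 or CD8 is lost, had 1 of 14 measured genes upward, Rag1, and 0 downward, with a median interaction of 0.30. All 14 were above 0, and 0 passed in Foxp3+ cells in limma (0 also at an unadjusted p under 0.05) while 4 fell in Foxp3- cells. The immature single-positive list had 5 of 26 upward and 0 downward, with a median of 0.34. These were Ccr9, the chemokine receptor gene Ccr4 (1.37 ± 0.22), Gata3, the factor of the CD4 helper lineage (0.82 ± 0.15), Tox2, a chromatin factor related to TOX (1.76 ± 0.32), and Marcks, a membrane-bound kinase substrate (1.29 ± 0.31). In Foxp3+ cells 0 of the 26 passed in limma, with 3 below 0 at an unadjusted p under 0.05, and in Foxp3- cells 11 fell. Gata3 measured 10.44, 10.42 and 10.27 in Foxp3+ CD24int and 10.30, 10.26 and 10.24 in Foxp3+ CD24hi cells, against 9.30, 9.25 and 9.37 in Foxp3- CD24int and 9.94, 10.08 and 10.05 in Foxp3- CD24hi cells, so only Foxp3- cells lost it. Marcks lost its call without any of 7 arrays (adjusted p up to 0.106), and without the array holding liver transcripts 4 of the 26 passed. Satb1, a chromatin organiser and the brightest of this list, had an interaction of 0.33 ± 0.17 that did not pass.

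The list of mature thymocytes and egress went the other way, with 0 of 26 upward and 7 downward and a median of -0.35. In Foxp3+ cells 1, Il6ra, rose, and in Foxp3- cells 12 rose and 1 fell. Klf3, a Kruppel-like repressor, measured 10.50, 10.55 and 10.54 in Foxp3+ CD24int cells and 10.73, 10.49 and 10.38 in Foxp3+ CD24hi cells, against 10.15, 9.85 and 9.60 in Foxp3- CD24int cells and 8.67, 8.50 and 7.93 in Foxp3- CD24hi cells. Foxp3- cells rose toward the level at which Foxp3+ cells already stood, with an interaction of -1.51 ± 0.28 (adjusted p = 0.00371). S1pr1, the egress receptor, measured 8.95, 8.67 and 9.04 in Foxp3+ CD24int cells and 8.58, 8.69 and 8.50 in Foxp3+ CD24hi cells, against 9.24, 8.79 and 8.90 in Foxp3- CD24int cells and 7.51, 7.45 and 6.71 in Foxp3- CD24hi cells. Its interaction was -1.46 ± 0.33 (adjusted p = 0.0189), and the call was lost without any of 4 arrays, at 0.0514 to 0.0679.

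The other members of this list that passed were smaller. Foxo1, a transcription factor that drives Klf2 and interleukin-7 receptor expression, had 10.88, 10.86 and 10.88 in Foxp3+ CD24int and 10.88, 10.89 and 10.88 in Foxp3+ CD24hi cells, against 10.78, 10.35 and 10.61 in Foxp3- CD24int and 10.01, 9.85 and 9.79 in Foxp3- CD24hi cells. Its interaction was -0.71 ± 0.15 (adjusted p = 0.0131; 0.0537 without replicate 1 of Foxp3- CD24int). Ms4a4b had -0.97 ± 0.15, the integrin gene Itgb7 -0.79 ± 0.15, Ms4a6b -0.87 ± 0.21 and the class I histocompatibility gene H2-K1 -0.66 ± 0.15, and the last pair lost their calls without any of 7 and 6 arrays, with adjusted p up to 0.0952 and 0.0894. Klf2 did not pass (-0.57 ± 0.45). Its arrays varied within each group, with 12.04, 12.36 and 11.55 in Foxp3+ CD24int and 11.80, 12.19 and 11.31 in Foxp3+ CD24hi cells, against 12.12, 12.52 and 11.74 in Foxp3- CD24int and 11.15, 12.03 and 10.85 in Foxp3- CD24hi cells. Leaving out the array with liver transcripts left 4 of the 26 passing downward.

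The naive T cell list had 0 of 18 upward and 4 downward (Pdlim4, Dapl1, Actn1 and Lypd6b), with a median of -0.47; 0 passed in Foxp3+ cells in limma (3 at an unadjusted p under 0.05) and 5 rose in Foxp3- cells, and without the array holding liver transcripts 2 passed. Actn1, which crosslinks actin, had an interaction of -0.88 ± 0.19 that was lost without either of 2 arrays (adjusted p 0.0514 and 0.0529).

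**Figure D3:**
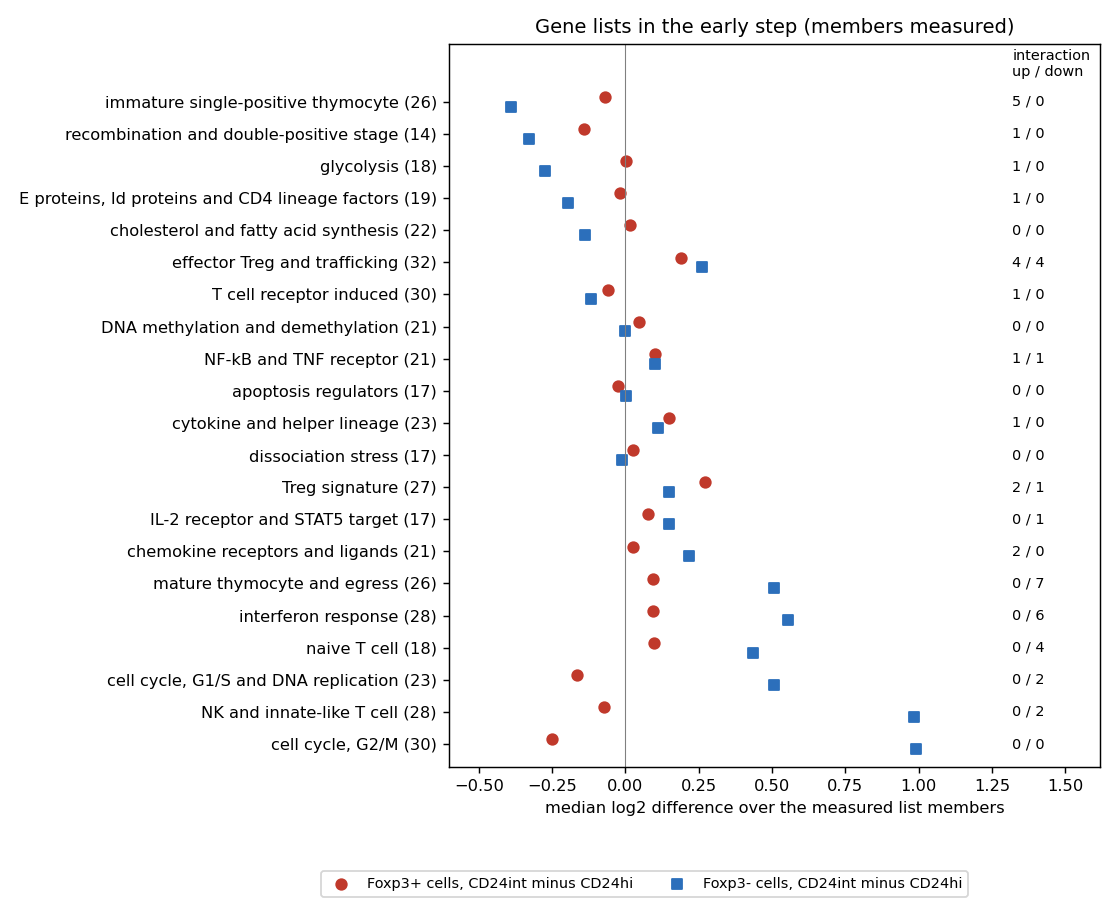
Median log2 change between CD24int and CD24hi over the measured genes of each of 21 lists, as circles for Foxp3+ cells and squares for Foxp3- cells, with the numbers of genes whose interaction passed upward and downward beside each list. The circles lie between -0.25 (G2/M list) and 0.27 (Treg signature), while the squares reach 0.99 for the G2/M list and -0.39 for the immature single-positive list.

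Interferon response genes rose in Foxp3- cells. Of 28 measured, 0 passed in Foxp3+ cells in limma, where 5 reached an unadjusted p under 0.05, and 19 rose and 0 fell in Foxp3- cells. For the interaction 0 passed upward and 6 downward, with a median of -0.45 and 2 of 28 above 0, and 1 and 16 reached an unadjusted p under 0.05. The mean log2 level over the list was 9.06, 9.10 and 9.12 in Foxp3+ CD24int cells and 9.02, 8.99 and 8.94 in Foxp3+ CD24hi cells, against 9.30, 9.13 and 9.30 in Foxp3- CD24int cells and 8.79, 8.64 and 8.58 in Foxp3- CD24hi cells. Foxp3+ cells in both gates lay between the Foxp3- gates. With the liver-bearing array left out, 2 of the 28 passed, at a median of -0.43, and with the 4 groups fitted without the rest of the study 0 passed in limma, where 1 upward and 15 downward reached an unadjusted p under 0.05.

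The 6 were Ddx58, the RNA sensor RIG-I (-0.62 ± 0.13), Oas2 (-1.19 ± 0.29) and Oas3 (-0.90 ± 0.21), which make the activator of an antiviral nuclease, Ifit3, an antiviral effector (-1.04 ± 0.24), Irgm1, an immunity-related GTPase (-0.74 ± 0.19), and Irf7, a transcription factor of the response (-0.72 ± 0.18). They differed in where Foxp3+ cells stood. Ifit3 measured 7.18, 7.63 and 7.67 in Foxp3+ CD24int cells and 7.18, 7.62 and 7.28 in Foxp3+ CD24hi cells, against 7.68, 7.46 and 7.78 in Foxp3- CD24int cells and 6.82, 6.32 and 6.26 in Foxp3- CD24hi cells, so Foxp3- cells came up to the level of Foxp3+ cells. Oas3 measured 5.86, 5.45 and 5.47 in Foxp3+ CD24int cells and 5.82, 5.28 and 5.55 in Foxp3+ CD24hi cells, against 6.79, 6.68 and 6.68 in Foxp3- CD24int cells and 5.76, 5.80 and 5.75 in Foxp3- CD24hi cells, so Foxp3- cells rose above Foxp3+ cells. These calls were lost without any of 1 to 9 arrays, with adjusted p of 0.0511 to 0.133, and the list is described by its counts rather than by any 1 gene.

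Promoter windows of RefSeq (GRCm38.p6, 250 bases before to 50 after each start) were searched on both strands for GAAA followed, after any 2 bases, by GAAA, the core to which interferon-induced factors are known to bind. These letters were present in 13 of 27 windows of the interferon list (48.1%, from 21 genes with a window), against 548 of 18110 windows of all measured genes (3.03%). Among the 6 genes, the windows of Ifit3, Oas3 and Irgm1 held the letters before the start and that of Ddx58 just after it. The letters were not confined to genes that rose in Foxp3- cells. They also lay before the start of Gbp2 and Gbp3, which did not pass in Foxp3- cells. The interactions of Gbp2 and Gbp3, 0.10 ± 0.17 and 0.49 ± 0.23, did not pass either. The list was made of interferon response genes, so its share describes the list and not the early step. As examples, the stretches before the start of 3 of the 6 genes follow on the strand of the gene, with the matching letters in capitals. The matches in Ifit3 lie on the opposite strand and read here as the complement, and those in Irgm1 overlap each other.
Ifit3, chr19:34583333-34583456, plus strand: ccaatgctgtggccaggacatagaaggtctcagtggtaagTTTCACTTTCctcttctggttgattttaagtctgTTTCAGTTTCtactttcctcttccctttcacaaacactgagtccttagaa
Irgm1, chr11:48871421-48871490, minus strand: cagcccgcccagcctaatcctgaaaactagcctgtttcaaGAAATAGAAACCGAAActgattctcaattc
Oas3, chr5:120777685-120777774, minus strand: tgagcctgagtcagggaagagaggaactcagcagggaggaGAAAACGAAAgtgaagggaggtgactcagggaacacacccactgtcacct
A match of letters is a description and was not tested as a binding site.

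The cell cycle lists had downward medians with few calls. In the G2/M list, genes of mitosis, 0 of 30 passed in either direction in limma, with 5 downward at an unadjusted p under 0.05, the median interaction was -1.29 and 1 gene was above 0. The mean log2 level over the list was 6.78, 6.14 and 6.06 in Foxp3+ CD24int cells and 7.45, 6.07 and 6.18 in Foxp3+ CD24hi cells, against 8.63, 7.46 and 7.52 in Foxp3- CD24int cells and 7.82, 6.63 and 6.50 in Foxp3- CD24hi cells. Replicate 1 was the highest array of each group by 0.64 or more, and the range within a group was 0.72 to 1.38. Between arrays of the same number, the step in the list mean was -0.67, 0.07 and -0.12 in Foxp3+ cells, against 0.81, 0.83 and 1.01 in Foxp3- cells (replicates 1 to 3). In the G1/S list, genes of DNA replication, 0 of 23 passed upward and 2 downward, with a median of -0.69 and 0 genes above 0. At an unadjusted p under 0.05 in limma, 13 of the 23 were downward and 0 upward for the interaction. At that level 15 rose in Foxp3- cells and 3 fell in Foxp3+ cells. The 2 that passed for the interaction were Slbp, which binds histone messenger RNA (-0.82 ± 0.18, adjusted p = 0.0131), and Prim1, the primase subunit (-0.99 ± 0.24, lost without any of 8 arrays, adjusted p up to 0.104). Slbp measured 9.63, 9.71 and 9.71 in Foxp3+ CD24int and 9.95, 9.53 and 9.96 in Foxp3+ CD24hi cells, against 10.51, 10.33 and 10.52 in Foxp3- CD24int and 9.81, 9.72 and 9.78 in Foxp3- CD24hi cells. The letters TTTGAA, the core of the cell cycle homology region, were in 19 of 25 promoter windows of the G2/M list (76.0%) and 1 of 22 of the G1/S list (4.55%), against 2427 of 18110 windows (13.4%). The letters CACCC, the Klf box, were searched for the mature thymocyte and egress list. They were in 16 of 24 of its windows (66.7%), near the share of all windows (11414 of 18110, 63.0%).

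Genes of NK and innate-like T cells rose in Foxp3- cells too. Of 28 measured, 0 passed in Foxp3+ cells in limma, where 4 reached an unadjusted p under 0.05, and 12 rose and 0 fell in Foxp3- cells. For the interaction 0 passed upward and 2 downward, Klrd1 and Il2rb, with a median of -0.92 and 1 gene above 0, and 15 reached an unadjusted p under 0.05, all downward. Il2rb, the interleukin-2 receptor beta chain, is shared with Treg cells: it measured 10.75, 10.63 and 10.54 in Foxp3+ CD24int and 10.58, 10.21 and 10.18 in Foxp3+ CD24hi cells, against 7.47, 7.08 and 6.80 in Foxp3- CD24int and 5.76, 5.74 and 5.44 in Foxp3- CD24hi cells (interaction -1.15 ± 0.25, lost without any of 3 arrays, adjusted p up to 0.0639). The summed intensity of the 28 genes was 3427 to 3641 in Foxp3+ CD24int cells and 2816 to 3526 in Foxp3+ CD24hi cells, against 1253 to 2888 in Foxp3- CD24int cells and 826 to 1064 in Foxp3- CD24hi cells. Replicate 3 of Foxp3- CD24int, the lowest for Klrd1, was also the lowest of its group for the list, with a mean log2 of 4.94 against 6.01 and 5.81. In Foxp3+ cells much of the sum was Il2rb: without it, the sum was 1705 to 2069 in Foxp3+ CD24int and 1628 to 2368 in Foxp3+ CD24hi cells, against 1141 to 2710 in Foxp3- CD24int and 783 to 1011 in Foxp3- CD24hi cells. The sum of all 28 reached 21206 to 23629 in Foxp3- CD24lo cells. Innate-like transcripts moved with the Foxp3- gates beside the maturation genes, and their part in the other results was not tested. None of the 28 passed in limma without the array holding liver transcripts, with 13 at an unadjusted p under 0.05. Of 7 measured CD8 T cell markers, 1 passed, Ctsw, a cathepsin (-1.09 ± 0.18, adjusted p = 0.000874). The list was mixed in direction. Its interactions ran from -1.09 to 0.89, with 3 of the 7 above 0. At an unadjusted p under 0.05 in limma, 2 were upward and 2 downward, against 1293 and 1023 of all 18194 genes.

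The lists of Treg genes had interaction calls in both directions and interaction medians near 0. In the Foxp3+ step, 3 of 27 Treg signature genes and 5 of 32 effector Treg and trafficking genes rose, and 0 fell. Over all genes 0.242% rose in that step. In Foxp3- cells 5 of the 27 rose and 0 fell, and 9 of the 32 rose and 5 fell. The median change of the Treg signature was 0.27 in Foxp3+ and 0.15 in Foxp3- cells. In the Treg signature 2 of 27 passed upward and 1 downward, with a median of 0.02: Izumo1r, the folate receptor 4 (0.94 ± 0.23), and Klrg1 upward, and Il2rb downward, while Tnfrsf18, the GITR receptor and the brightest that did not pass, had 0.40 ± 0.20. The call of Izumo1r was lost without any of 8 arrays (adjusted p up to 0.119), and without the array holding liver transcripts 0 of the 27 passed in limma, with 6 at an unadjusted p under 0.05. The effector Treg and trafficking list had 4 of 32 upward (Ccr4, Gata3, Itgb1 and Klrg1) and 4 downward (Itga4, Itgb7, Lgals1 and Ahnak), with a median of 0.17. Itga4, the alpha 4 integrin chain, had -1.16 ± 0.22 (adjusted p = 0.00392), and Lgals1, the lectin galectin-1, -0.98 ± 0.20 (adjusted p = 0.00853). Itgb1, the beta 1 integrin chain, had 1.49 ± 0.35, lost without any of 7 arrays (lowest adjusted p 0.0541). With the liver-bearing array left out, 2 passed upward and 3 downward.

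Signalling lists gave single genes. Of 30 genes induced by the T cell receptor 1 passed, Tnfsf11, the cytokine RANKL (1.30 ± 0.26, adjusted p = 0.00674), at a list median of 0.14. Of 21 NF-kB and TNF receptor genes, Relb, an NF-kB subunit, passed upward (0.64 ± 0.15) and Bcl3, an atypical inhibitor of NF-kB, downward (-0.70 ± 0.17), and both calls were lost without any of 7 and 8 arrays (adjusted p up to 0.0963 and 0.101). Of 17 genes of the interleukin-2 receptor and its factor STAT5, Il2rb alone passed, at a median of -0.09. The glucose transporter gene Slc2a3 was the only 1 of 18 glycolysis genes to pass (0.95 ± 0.17, adjusted p = 0.00238; list median 0.30). The chemokine list had Ccr9 and Ccr4 of 21, the cytokine list Gata3 of 23, and the list of E proteins, Id proteins and CD4 lineage factors Gata3 of 19. No gene passed by limma among 17 apoptosis regulators, 21 genes of DNA methylation, 22 of cholesterol and fatty acid synthesis or 17 of dissociation stress, nor among the markers of B cells (9), antigen-presenting cells (14), thymic epithelium (10), granulocytes and mast cells (9) or erythroid cells and platelets (7). At an unadjusted p under 0.05 those lists had, in the same order, 2, 4, 3, 2, 1, 4, 3, 0 and 0 genes. The 4 of 14 antigen-presenting cell markers and the 3 of 10 thymic epithelium markers were all downward. That is a larger share than the 1023 of 18194 genes downward at that level, and its part in the other results was not tested. With 2316 of all 18194 genes at that level in either direction, the other counts are not read as results about the lists.

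The early step was set beside the late one, between CD24lo and CD24int, for which the same interaction passed for 256 genes upward (1.41%) and 649 downward (3.57%). The CD24int arrays are in both steps with opposite signs, so an error in them moves the 2 interactions apart, and only the test of their difference is read here. That difference passed for 317 genes (1.74%), among them 56 of the 184 and 36 of the 97. For 46 genes both interactions passed in opposite directions and their difference passed as well, 28 of them upward in the early and downward in the late step. Without the array holding liver transcripts there were 36.

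Il17rb had the largest of these differences among the named genes, 5.09 ± 0.84. Its mean was 5.73, 5.99 and 5.85 over CD24hi, CD24int and CD24lo in Foxp3+ cells, against 8.90, 6.92 and 9.62 in Foxp3- cells, which fell and then came back while Foxp3+ cells stayed low. Chdh had 4.59 ± 0.79, with means of 5.23, 5.98 and 5.84 in Foxp3+ cells against 9.39, 7.23 and 8.78 in Foxp3- cells. Foxo1 went the other way, -1.54 ± 0.27, with 10.89, 10.87 and 10.92 in Foxp3+ cells against 9.88, 10.58 and 9.80 in Foxp3- cells. Rag1 had a late interaction of -0.03 ± 0.36, which did not pass, and lay at 3.63 in Foxp3+ and 3.49 in Foxp3- CD24lo cells. Klrd1 continued in the same direction, with a late interaction of -4.38 ± 0.55 and 2.53 in Foxp3+ against 9.74 in Foxp3- CD24lo cells.

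**Figure D4:**
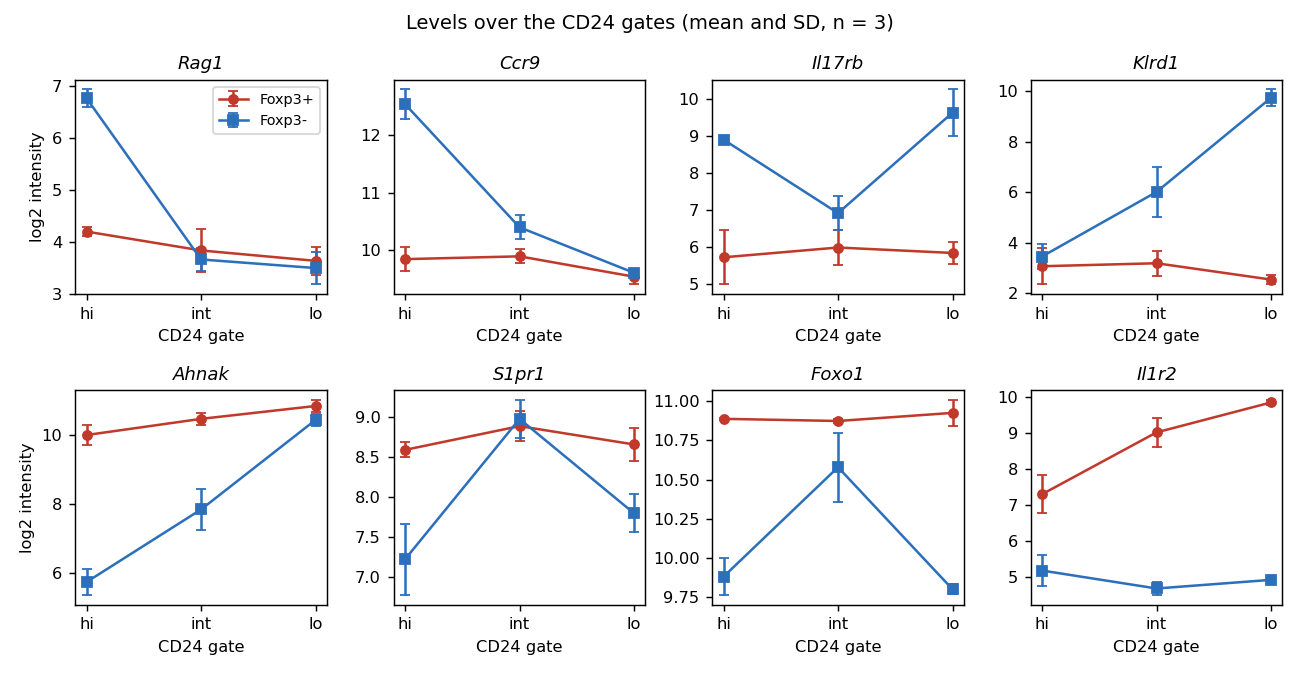
Mean log2 intensity over CD24hi, CD24int and CD24lo for 8 genes, in Foxp3+ and Foxp3- cells, with error bars of 1 SD over 3 arrays. For Rag1 and Ccr9 the Foxp3+ line changes little between CD24hi and CD24int while the Foxp3- line falls steeply; for Il17rb and Foxo1 the Foxp3- line turns back at CD24lo; and Klrd1 climbs in Foxp3- cells to 9.74 at CD24lo.

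The comparison has 3 arrays a group and gates drawn on CD24, whose own transcript changed by -1.26 in Foxp3+ and -2.73 in Foxp3- cells. Of 69 named genes that passed, 33 kept the call when any 1 array was left out, 5 lost it without 1 particular array and 31 without any of several.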

How the data were processed

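Messenger RNA was measured on 27 Affymetrix 3' expression arrays in 9 groups of 3, from 50 ng of total RNA a sample per the labels' protocols. The deposited values are linear intensities that the authors made with RMA, which corrects background, normalises and summarises probes, per the submitters' processing notes; its settings and whether all arrays were processed together are not given in the sources used here. They lay between 3.55 and 24083 (array medians 30.3 to 32.0) and were taken to log2 with no added constant. Each of 18194 genes was represented by its probe set with the highest mean among 34958 with a single symbol; 932 probe sets with several symbols and 9211 with none were left out, and no gene was removed for low signal.

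Tests were made in limma 3.58.1 (R 4.3.3): 9 group means were fitted to all 27 arrays with empirical Bayes moderation (prior degrees of freedom 5.98), and two-sided p-values were adjusted over all genes. On simulated data with known changes, the interaction recovered 78% of 100 genes changed by 1 log2 unit and 99% of 100 changed by 2, with 10 calls among unchanged genes. The simulated noise was independent between arrays. It held no deviation shared by a replicate number and no array with transcripts of another tissue, so these rates may not hold for the real arrays. The first digit of each description code served as the replicate number. Same-numbered arrays deviated from their group means together. Correlations were above 0.1 in every pair of each step (0.34 to 0.54 in Foxp3+ cells, 0.22 to 0.48 in Foxp3- cells). Over the 4 groups, 16 of 18 same-numbered pairs were above 0.1 (median 0.26), against 2 of 36 pairs of different numbers (median -0.11). Since not every pair of the 4 groups was above 0.1, numbers were taken to pair the arrays of a step and not those of the interaction. No label says what the digit marks. The reported fits have no block, so their standard errors and p-values leave this shared deviation out, also for the steps. The block given as an alternative is an effect of the number shared by all 27 arrays, not a pairing within a step. With it more genes passed.

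Members, lists, tests and the naming rule were chosen with earlier results of these data known. Named genes are Foxp3, Il2ra, Cd24a, Rag1, Ccr9 and Klrd1, the 12 largest passing interactions in each direction, from each list the smallest p in each direction and the brightest gene that failed, and the 4 largest of each class. The other list members that passed, whatever their size, and the genes that rose in both steps were added after values were seen. Lists came from general knowledge. The position on the Foxp3- path and the results without the array holding liver transcripts use the same fits. Promoter windows came from RefSeq, GRCm38.p6, which is not stated to be the build of the arrays. Alternatives were the block, the groups of a comparison fitted alone, quantile normalization, a minimum mean log2 of 5 and the mean of all probe sets. Further alternatives were 16 added before log2, an intensity trend with a robust prior, and each array or replicate number left out.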

Additional observations from a re-analysis of the deposited data

Results flagged for a closer look

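The change between CD24int and CD24hi differed between Foxp3+ and Foxp3- cells, by the test of the difference itself, for 184 genes upward and 97 downward. For Axl (2.41) and Egln3 (1.69) the arrays of the classes moved in opposite directions. No explanation of these differences was tested.

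The interaction itself differed between the early and the late step for 13 named genes whose 2 interactions also passed in opposite directions. Early minus late was 5.09 for Il17rb, 4.59 for Chdh, 3.37 for Cap2, 2.75 for Ccr4, 2.68 for Tnfsf11, 2.61 for Ell2 and 2.44 for Egln3. It was -1.69 for Actn1, -1.60 for Ms4a6b, -1.59 for Ms4a4b, -1.55 for Bcl3, -1.54 for Foxo1 and -1.35 for Itgb7. The steps share the CD24int arrays with opposite signs.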

How the results depend on the processing

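All 281 interaction genes kept their direction without the array holding liver transcripts, and no named result reversed under any alternative. With the replicate number as a block, the interaction passed for 628 genes upward and 413 downward, the Foxp3+ step for 210, the Foxp3- step for 1822 and the late interaction for 1533. The block also gave passing interactions to Cd24a (1.46, adjusted p = 0.00543, otherwise 0.178 to 0.909) and to 15 of 30 G2/M genes, 10 of 23 G1/S genes and 9 of 28 interferon genes, all downward in those lists. With the 4 groups fitted alone, the counts were 117 and 49 for the interaction. With only the arrays of its own gates fitted, the Foxp3+ step had 0 (1068 genes at an unadjusted p under 0.05) and the Foxp3- step 552. Quantile normalization gave 172 and 145. Leaving out 1 array at a time gave 125 to 222 upward and 48 to 108 downward, 14 to 73 for the Foxp3+ step, 626 to 805 for the Foxp3- step and 710 to 837 for the late interaction. The downward count was 48 without replicate 1 of Foxp3- CD24int, 60 without replicate 1 of Foxp3+ CD24hi and 58 without replicate 3 of Foxp3- CD24hi. Leaving out a replicate number gave 16 to 125 upward and 4 to 63 downward, 0 to 40 for the Foxp3+ step, 233 to 771 for the Foxp3- step and 338 to 608 for the late interaction. The smallest counts came without replicate 2, where the Foxp3+ step had 0 (844 at an unadjusted p). Fewer arrays enter those fits; the cause of the other shifts was not tested. Of the 281 genes, 20 to 281 still passed across the alternatives. The number of arrays limits precision, detection calls were not used, and genes near background have no bound here.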
